A study of Homo sapiens with 18 samples.

Results

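MAX, MXD1, MXD4, MXI1, MNT, MGA, MLX and MLXIP are 8 of the 14079 genes in a table of CAGE tag counts. These genes were taken by symbol, with earlier results of these data known. Together they encode the common partner of MYC and most of the proteins that compete with MYC for it or for its binding sites. CAGE (cap analysis of gene expression) counts short tags read at the cap of each RNA, so that a tag marks a transcription start and a gene's tag count follows its RNA level without a correction for length. The cells were human acute myeloid leukaemia lines labelled AML2 and AML3, given as OCI-AML2 and OCI-AML3 in the tables. Each line was grown with vehicle (DMSO), JQ1 or OTX015, giving 6 groups of 3 and 18 libraries in all. JQ1 and OTX015 are BET inhibitors, which occupy the acetyl-lysine pockets of bromodomain proteins and are known to lower MYC transcription in blood cancers. As background, OCI-AML3 is the common model of mutated NPM1 and OCI-AML2 carries normal NPM1, while the labels give no genotype, dose or treatment time. Each line is a single culture-adapted line, and nothing in the labels says that libraries of a group came from separate cultures, so p-values measure the spread between these libraries.

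MAX is a small basic helix-loop-helix leucine zipper protein that binds E-box DNA (CACGTG) only as a dimer. With MYC it recruits coactivators and turns genes of growth on. With MXD1, MXD4, MXI1 or MNT it recruits the SIN3 corepressor and histone deacetylases to the same sites, and with MGA it joins a Polycomb complex, PRC1.6, that silences germline genes. MLX is a MAX-like partner that binds MXD1, MXD4, MNT and the glucose-responsive factor MLXIP (MondoA), whose best-known target is TXNIP. In the myeloid lineage MXD1 is known for its rise as MYC falls during terminal differentiation.

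Reference promoter sequences of the members are given first, because CAGE reads transcription starts and because several results below concern which start was used. The windows end at annotated starts, and the promoters measured below, mostly named in hg19 coordinates, were not placed on them. All 8 members matched the RefSeq promoter table (GRCh38.p14), with 13 windows in all. The 250 bases before each annotated start are printed 5′ to 3′ on the gene's own strand, and capitals mark the E-box CACGTG, which reads the same on both strands. MXD1 and MXD4 are shown because their tags changed most, MXI1 because the shares of its 2 main starts changed, and MNT and MLX because their windows hold the E-box.
MXD1 (chr2:69914859-69915108, plus strand): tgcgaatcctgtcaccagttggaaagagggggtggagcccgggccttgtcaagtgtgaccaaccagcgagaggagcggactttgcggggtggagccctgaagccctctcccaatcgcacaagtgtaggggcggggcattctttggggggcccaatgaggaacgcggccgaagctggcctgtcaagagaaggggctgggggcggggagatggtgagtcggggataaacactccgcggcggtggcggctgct
MXD4 (chr4:2262110-2262359, minus strand): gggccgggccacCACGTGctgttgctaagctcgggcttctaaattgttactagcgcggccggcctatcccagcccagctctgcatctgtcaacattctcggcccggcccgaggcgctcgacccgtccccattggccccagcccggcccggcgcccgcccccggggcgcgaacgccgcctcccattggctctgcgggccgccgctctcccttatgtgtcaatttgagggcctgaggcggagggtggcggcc
MXI1 upstream start (chr10:110207355-110207604, plus strand): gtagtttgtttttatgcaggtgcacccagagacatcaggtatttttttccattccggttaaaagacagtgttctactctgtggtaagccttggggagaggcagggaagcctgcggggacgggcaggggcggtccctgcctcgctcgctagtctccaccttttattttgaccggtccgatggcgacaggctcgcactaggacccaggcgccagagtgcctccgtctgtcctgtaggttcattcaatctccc
MXI1 downstream start (chr10:110225746-110225995, plus strand): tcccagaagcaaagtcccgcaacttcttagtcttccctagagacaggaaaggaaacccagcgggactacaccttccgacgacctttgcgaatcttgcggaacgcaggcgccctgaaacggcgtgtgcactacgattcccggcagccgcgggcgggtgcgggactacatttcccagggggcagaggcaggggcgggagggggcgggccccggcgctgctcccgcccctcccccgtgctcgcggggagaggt
MNT (chr17:2401061-2401310, minus strand): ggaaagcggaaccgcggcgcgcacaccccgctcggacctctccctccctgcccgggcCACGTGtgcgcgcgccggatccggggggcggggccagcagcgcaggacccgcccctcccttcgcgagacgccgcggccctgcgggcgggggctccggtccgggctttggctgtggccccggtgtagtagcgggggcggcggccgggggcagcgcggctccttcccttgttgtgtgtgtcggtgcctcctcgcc
MLX (chr17:42566850-42567099, plus strand): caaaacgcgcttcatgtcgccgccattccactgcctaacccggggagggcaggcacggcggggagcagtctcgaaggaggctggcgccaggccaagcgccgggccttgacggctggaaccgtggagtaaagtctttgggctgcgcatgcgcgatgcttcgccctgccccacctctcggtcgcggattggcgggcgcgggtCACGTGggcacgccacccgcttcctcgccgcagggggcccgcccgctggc
The E-box stood in 3 of the 13 windows, 1 each for MXD4, MNT and MLX. It lay 233 bases before the annotated start of MXD4, 188 before that of MNT and 45 before that of MLX. Of 35116 windows of the same length in the RefSeq table, 6.34% held it. A match describes these letters only, and the absence of one in the windows of MXD1, MXI1, MAX, MGA and MLXIP says nothing about binding.

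Library depth ran from 303883 to 2163106 tags assigned to genes. Libraries numbered 3 were the shallowest of every group, and in the drug groups they had the highest normalization factors. MALAT1, a nuclear long non-coding RNA, made up 0.102% to 0.291% of the vehicle libraries and 1.41% to 6.75% of the drug libraries. Of 10 myeloid markers 8 had a row and 6 had a tag in every library (PTPRC, CD33, SPI1, CEBPA, LYZ and CSF3R). Of those 6, 5 fell under JQ1 and 6 under OTX015 in AML3, where 24.1% and 26.1% of all genes tested fell. In AML2 2 and 3 of them fell, where 17.4% and 19.9% of all genes did. The 8 summed to 907.5 to 1743 CPM (tags relative to the TMM-scaled library total) in AML2 with vehicle, 849.4 to 1202 with either compound, 1244 to 1432 in AML3 with vehicle and 418.5 to 638.9 with either compound. Of 16 markers of T, B, erythroid, epithelial and fibroblast cells 4 had a row (CD79A, PAX5, COL1A2 and PDGFRB), and no library summed above 5.461 CPM for the markers of any 1 of these types. The part of MALAT1, of the fall in myeloid markers and of the libraries numbered 3 in the results below was not tested. In bulk RNA, fewer cells that use a gene and less RNA per cell cannot be told apart.

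With vehicle, MAX stood above every other member in both lines. It averaged 147 ± 14.4 CPM in AML2 and 137 ± 4.23 CPM in AML3 (mean ± SD, n = 3 libraries here and below). In AML2 the next were MXI1 at 47.5 ± 14.2, MLX at 45.1 ± 4.99 and MXD4 at 32.3 ± 8.28 CPM, with the libraries of MXI1 and MLX overlapping. MGA at 17.3 ± 8.88, MLXIP at 10.2 ± 4.81 and MXD1 at 9.47 ± 0.933 CPM came lower, each overlapping its neighbour in that order, and MNT was lowest at 4.22 ± 2.96 CPM. AML3 had the same members at the bottom, MXD1 at 8.98 ± 5.40 and MNT at 6.82 ± 0.332 CPM, whose libraries overlapped. Next below MAX in AML3 was MXD4 at 73.5 ± 8.99 CPM, overlapping MLX at 68.3 ± 20.4 CPM.

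MXD4 was the member that set the lines apart. Its AML2 vehicle libraries read 38.8, 35.3 and 23.0 CPM and its AML3 vehicle libraries 72.1, 83.1 and 65.2 CPM. All AML3 libraries were above all AML2 libraries (log2 1.16, SE 0.24, adjusted p = 0.000717, edgeR). It was the 1 member of the 7 tested that was higher in AML3, against 11.4% of the 10031 genes tested, and 0 were lower, against 11.7%. MNT was not among the 7, because its 100 tags over all libraries did not pass the filter on low counts. MLX was 0.54 higher on the log2 scale with overlapping libraries (adjusted p = 0.0809), and it passed without AML3 vehicle replicate 1 (0.80, adjusted p = 0.0145). MYC itself went the other way, from 439 ± 29.6 CPM in AML2 to 191 ± 15.6 CPM in AML3 (log2 -1.20, SE 0.22).

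**Figure D1:**
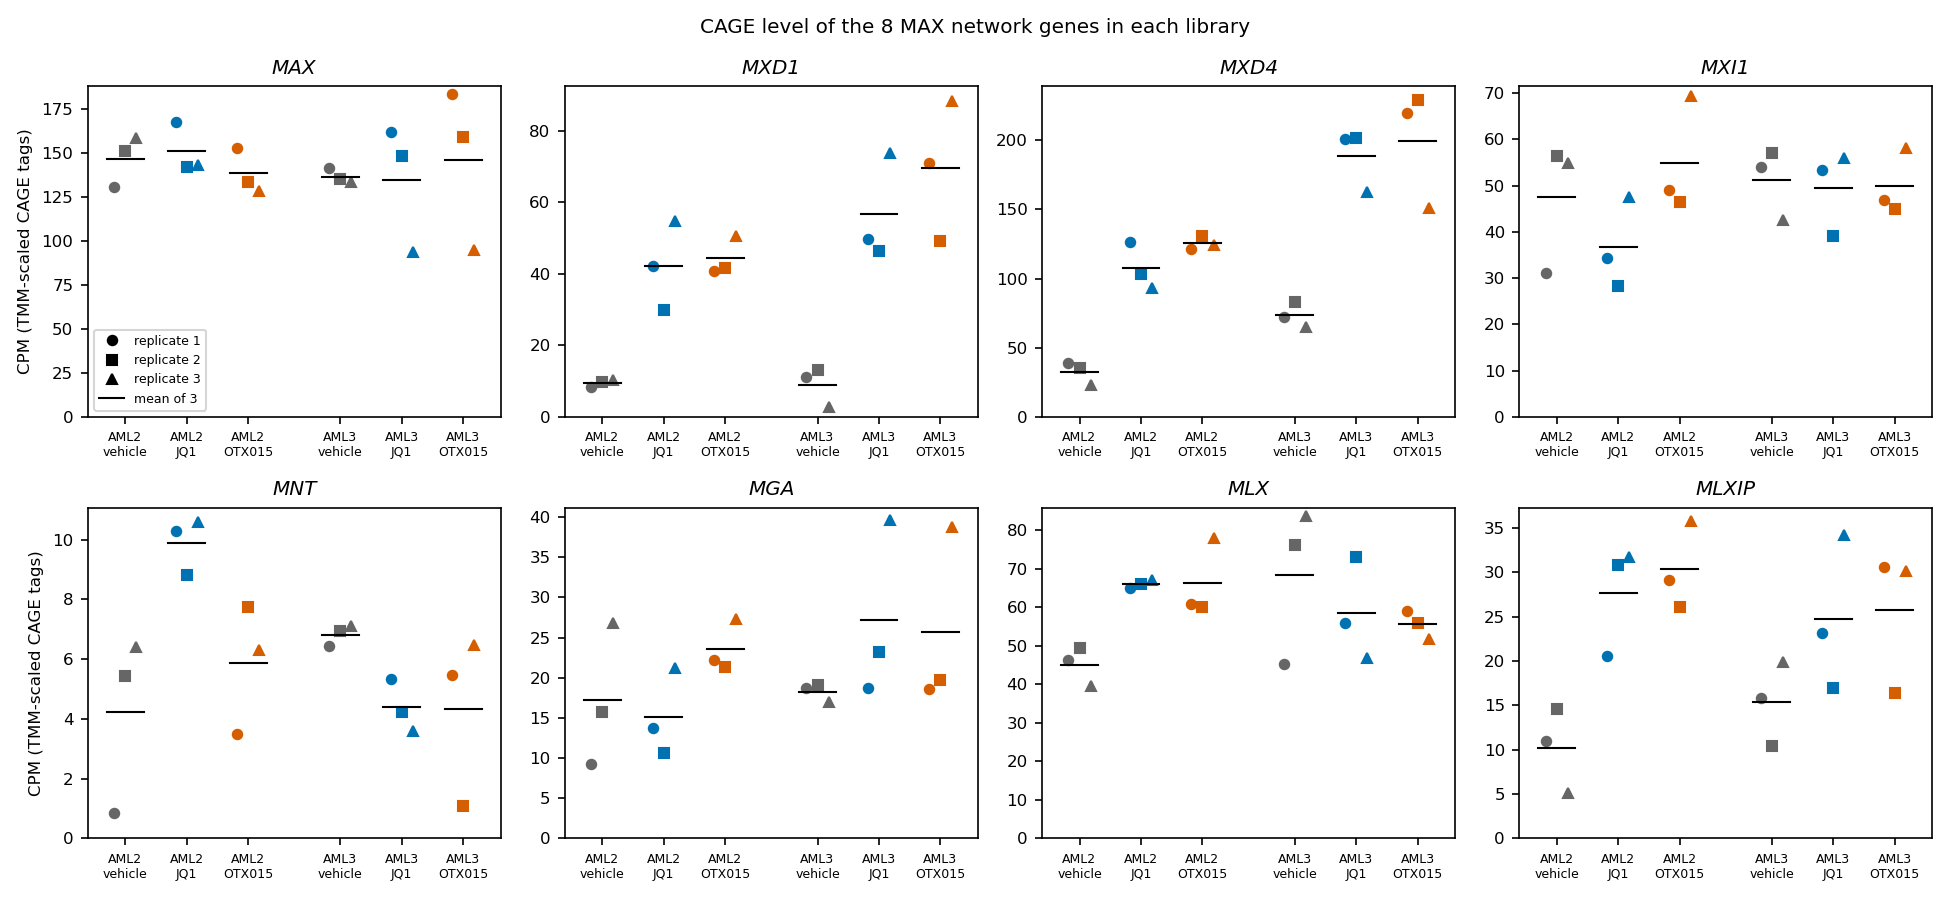
CPM (TMM-scaled, linear axes that differ between panels) of the 8 genes in each of the 18 libraries, with marker shapes for replicates and a line at each group's mean of 3. MXD1 and MXD4 lie higher in every drug library than in every vehicle library of the same line, while MAX stays between 93.8 and 183 CPM throughout.

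Against vehicle, the members that moved were antagonists and MLXIP, and all of them rose. JQ1 in AML2 raised 3 of the 7 tested members (17.2% of all genes rose) and lowered 0 (17.4% fell). OTX015 in AML2 raised 3 (20.5%) and lowered 0 (19.9%). In AML3 each compound raised 2, against 26.8% of all genes under JQ1 and 28.8% under OTX015, and lowered 0, against 24.1% and 26.1%. The share of members that rose in AML3 was close to that of all genes. The median log2 change of the 7 was 0.53 and 0.51 in AML2 and 0.47 and 0.37 in AML3 under JQ1 and OTX015, where the median of all genes lay between 0 and 0.04. MXD1 and MXD4 rose in each of the 4 comparisons, as 9.57% of all genes did. Both compounds were read against the same 3 vehicle libraries of a line, so the comparisons under JQ1 and under OTX015 are not independent.

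MAX (chr14:65006174-65102695, minus strand, GRCh38 as for the genes below), the hub, did not move beyond its spread. It read 142 to 168 CPM under JQ1 and 128 to 153 under OTX015 in AML2, around the 131 to 158 of vehicle. In AML3 it read 93.8 to 162 under JQ1 and 94.8 to 183 under OTX015, around a narrow 133 to 141 with vehicle. The 2 values under 100 CPM were the libraries numbered 3. Its log2 changes lay between -0.08 and 0.11, and the widest 95% confidence intervals reached from -0.57 to 0.60. With library totals alone as the scale, MAX was 0.58 higher under OTX015 in AML3 (adjusted p = 0.0154), a setting under which the median of all genes there was 0.51.

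MXD1 (MAD1, chr2:69897688-69942945 in GRCh38, plus strand), the antagonist known from terminal differentiation, had the largest fold changes of the members. Its vehicle libraries read 8.43, 9.76 and 10.2 CPM in AML2 and 11.1, 12.98 and 2.84 CPM in AML3. Under JQ1 they read 42.2, 30.0 and 54.7 CPM in AML2 and 49.8, 46.5 and 74.0 CPM in AML3. Under OTX015 they read 40.9, 41.6 and 50.5 CPM in AML2 and 71.0, 49.3 and 88.3 CPM in AML3. Every drug library was above every vehicle library of its line, the lowest drug library being 30.0 CPM and the highest vehicle library 12.98. In AML2 the drug libraries stood wholly above vehicle for 23.9% of all genes under JQ1 and 26% under OTX015. JQ1 raised MXD1 4.28-fold in AML2 (log2 2.10, SE 0.34, adjusted p = 3.13e-05) and 5.52-fold in AML3 (log2 2.47, SE 0.33, adjusted p = 1.33e-06). OTX015 raised it 4.57-fold (log2 2.19, SE 0.34) and 6.77-fold (log2 2.76, SE 0.32, adjusted p = 1.82e-07). In every drug group the library numbered 3 was the highest, and the AML3 vehicle library numbered 3, with 2 tags, the lowest. Without the libraries numbered 3 the changes were 1.98 (AML2) and 2.01 (AML3) for JQ1 and 2.19 (AML2) and 2.32 (AML3) for OTX015, each still past the test.

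MXD4 (MAD4, chr4:2247432-2262294, minus strand) started higher and gained most in level. In AML2 it went from 32.3 ± 8.28 CPM to 127, 103.1 and 93.5 CPM under JQ1 and 121, 131 and 124 CPM under OTX015. In AML3 it went from 73.5 ± 8.99 CPM to 201, 202 and 162 CPM under JQ1 and 219.5, 229 and 151 CPM under OTX015. Vehicle and drug libraries did not overlap in either line. The changes were log2 1.71 (SE 0.24, adjusted p = 5.94e-06) and 1.92 (SE 0.24) in AML2 and 1.36 (SE 0.22) and 1.45 (SE 0.22, adjusted p = 8.43e-06) in AML3. With a compound, AML3 thereby had MXD4 in place of MAX as its highest member. Within each AML3 library under JQ1, MXD4 was above MAX (201, 202 and 162 against 162, 148 and 93.8 CPM). The same held under OTX015 (219.5, 229 and 151 against 183, 159 and 94.8 CPM). Across libraries, the lowest for MXD4 under JQ1 was 162.3 CPM and the highest for MAX 161.8 CPM. Under OTX015 the ranges of MXD4 and MAX overlapped.

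MXI1 (MAD2, chr10:110207605-110287365, plus strand), another SIN3-recruiting member, did not pass the test as a gene. It read 31.2 to 56.4 CPM with vehicle, 28.2 to 47.6 under JQ1 and 46.4 to 69.5 under OTX015 in AML2. In AML3 it read 42.5 to 57.1 with vehicle, 39.1 to 55.9 under JQ1 and 44.9 to 58.1 under OTX015. The groups overlapped throughout, with log2 changes from -0.42 to 0.17. MNT (chr17:2384060-2401118, minus strand), the constitutive antagonist, held 1 to 11 tags per library and was removed by the filter on low counts. In AML2 its libraries read 0.843, 5.42 and 6.39 CPM with vehicle, 10.3, 8.81 and 10.6 under JQ1 and 3.503, 7.74 and 6.32 under OTX015. In AML3 they read 6.45, 6.92 and 7.09 CPM with vehicle, 5.34, 4.23 and 3.61 under JQ1 and 5.46, 1.10 and 6.46 under OTX015. The JQ1 libraries lay wholly above vehicle in AML2 and wholly below it in AML3, and the OTX015 libraries overlapped vehicle in both lines. In the edgeR fit without the filter the JQ1 changes were log2 1.18 in AML2 (adjusted p = 0.0934) and -0.58 in AML3 (adjusted p = 0.438), and their difference of -1.76 did not pass (unadjusted p = 0.0264, adjusted p = 0.213).

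MLXIP (MondoA, chr12:122078722-122147347, plus strand), the glucose-sensing partner of MLX, rose in AML2. Vehicle libraries read 10.95, 14.6 and 5.11 CPM, JQ1 libraries 20.5, 30.9 and 31.8, and OTX015 libraries 29.2, 26.1 and 35.8. All drug libraries were higher (JQ1 log2 1.29, SE 0.35, adjusted p = 0.00512; OTX015 log2 1.40, SE 0.35, adjusted p = 0.00235). In AML3 the vehicle libraries read 15.8, 10.4 and 19.9 CPM, the JQ1 libraries 23.1, 16.9 and 34.3 and the OTX015 libraries 30.6, 16.4 and 30.2. Those groups overlapped, and changes of 0.66 and 0.74 did not pass (adjusted p = 0.113 and 0.0737). Leaving out AML3 OTX015 replicate 2, the lowest of its group, gave 1.01 (adjusted p = 0.0272). With library totals alone as the scale both AML3 changes passed (JQ1 1.09, adjusted p = 0.0316; OTX015 1.22, adjusted p = 0.0157). A difference between the lines in this response was not found by its own test (JQ1 -0.63, 95% interval -1.64 to 0.38; OTX015 -0.65, interval -1.67 to 0.36).

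MLX (chr17:42567068-42573239, plus strand), the partner of MLXIP, read 39.6 to 49.4 CPM with vehicle in AML2, 65.1 to 67.0 under JQ1 and 60.0 to 77.9 under OTX015. These groups did not overlap, as was so for 23.9% and 26% of all genes in the rising direction, yet the changes of 0.53 and 0.51 missed the threshold (adjusted p = 0.0723 and 0.0802). They passed when only the groups compared were fitted (adjusted p = 0.0261 and 0.0444) and when libraries were scaled by their totals alone (0.0281 and 0.0226). In AML3 MLX read 45.1 to 83.7 CPM with vehicle and 46.9 to 72.9 with either compound, with changes of -0.16 and -0.25. MGA (chr15:41621224-41773081, plus strand), the largest protein of the network, read 9.27 to 26.8 CPM with vehicle, 10.6 to 21.2 under JQ1 and 21.3 to 27.4 under OTX015 in AML2. In AML3 it read 17.0 to 19.0, 18.7 to 39.7 and 18.6 to 38.8 CPM. Its changes ran from -0.20 to 0.49 and did not pass, and the highest library of each drug group was the one numbered 3.

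**Figure D2:**
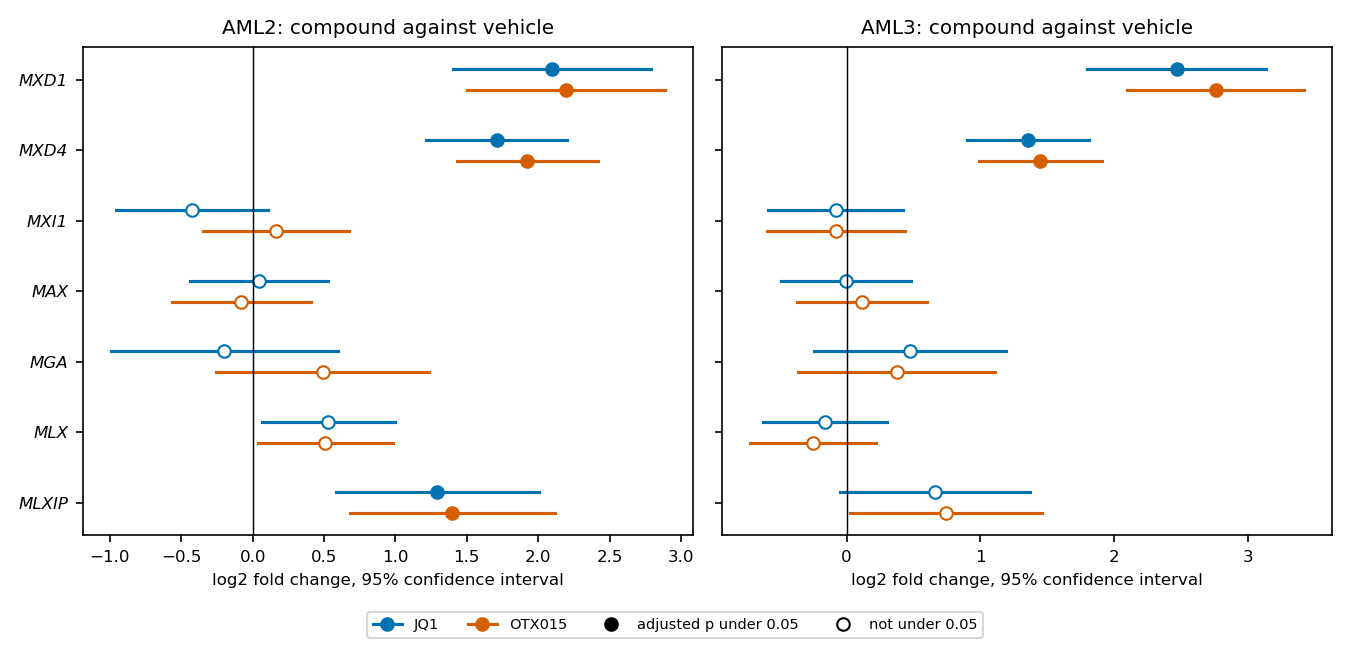
Log2 fold change of the 7 tested genes for each compound against vehicle (horizontal axis, points with 95% confidence intervals from edgeR), with AML2 on the left and AML3 on the right and filled points for an adjusted p under 0.05. MXD1 and MXD4 are filled in both lines for both compounds, MLXIP in AML2, and the intervals of MAX, MXI1 and MGA span 0.

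Other genes of the network surround the members. MYC fell under JQ1 to 66.6 ± 16.5 CPM in AML2 (log2 -2.74) and 69.6 ± 6.87 CPM in AML3 (log2 -1.47). Under OTX015 it fell to 50.3 ± 8.68 CPM (log2 -3.15) and 76.3 ± 20.7 CPM (log2 -1.31). MXD3, an antagonist linked to S phase, rose in AML2 from 33.2 ± 15.5 to 106 ± 28.3 CPM under JQ1 (log2 1.62, SE 0.30, adjusted p = 0.000141) and to 89.2 ± 32.4 CPM under OTX015 (log2 1.40, SE 0.30). In AML3 MXD3 was 26.5 ± 4.02 CPM with vehicle, 30.9 ± 6.05 under JQ1 and 26.8 ± 12.4 under OTX015, and its changes of 0.23 and -0.08 did not pass. The difference between the lines was -1.39 for JQ1 (adjusted p = 0.0683) and -1.48 for OTX015 (adjusted p = 0.0593), just outside the threshold. MXD3 passed that test in 5 of 19 and 7 of 19 alternative settings, among them DESeq2 (adjusted p = 0.0475 and 0.0408) and single omissions of AML2 JQ1 replicate 3 (0.0336), AML2 OTX015 replicate 3 (0.0195) and AML3 OTX015 replicate 3 (0.0200).

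MLXIPL (ChREBP), the relative of MLXIP best known from liver, was read in AML3 and not in AML2. It had 0 tags in all 9 AML2 libraries and 29.2 ± 6.86 CPM in AML3 with vehicle, at least 37.1-fold higher against a floor of 3 tags over the AML2 vehicle group (adjusted p = 1.12e-08). In AML3 it rose to 78.5 ± 7.15 CPM under JQ1 (log2 1.39, SE 0.23) and 107 ± 18.4 CPM under OTX015 (log2 1.85, SE 0.23). MYCL, a MYC paralogue, was low everywhere. Its AML2 mean of 2.45 ± 1.07 CPM with vehicle became 9.51 ± 0.938 under JQ1 and 8.76 ± 6.81 under OTX015 (log2 1.84 and 1.81, adjusted p = 0.0273 and 0.0283). Those calls on 10 to 25 tags per group ended when a single library was left out: AML2 vehicle replicate 2 (adjusted p = 0.0803 and 0.0791), AML2 vehicle replicate 3 (0.0708 and 0.071), AML2 JQ1 replicate 1 (0.056) or 2 (0.0972), or AML2 OTX015 replicate 2 (log2 0.78, 0.514).

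Set against one another, the tags of MYC and of its antagonists changed places. In AML2 with vehicle there were 3.32, 3.02 and 4.22 MYC tags for each tag of MXD1, MXD3, MXD4, MXI1 and MNT together. Under JQ1 there were 0.153, 0.220 and 0.302, and under OTX015 0.152, 0.127 and 0.194. In AML3 the vehicle libraries held 1.10, 1.10 and 1.26, the JQ1 libraries 0.197, 0.199 and 0.238 and the OTX015 libraries 0.189, 0.292 and 0.175. MYC tags outnumbered antagonist tags in all 6 vehicle libraries and in 0 of the 12 drug libraries, and the lines, which stood 3.52 against 1.15 on average with vehicle, both came to 0.158 to 0.225. MYC and antagonist tags together were 566 ± 34.1 CPM in AML2 with vehicle and 369 ± 24.5 and 370.1 ± 8.75 CPM under JQ1 and OTX015. In AML3 they were 358 ± 37.2 CPM with vehicle and 399 ± 4.96 and 427 ± 19.2 CPM with the compounds. MAX tags for each tag of these 6 genes were 0.259 ± 0.0152 in AML2 with vehicle, 0.384 ± 0.0398 in AML3 with vehicle and 0.337 to 0.409 on average in the drug groups. This is RNA and says nothing of protein or of dimers, and since its parts were chosen with their changes known it was not tested.

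The make-up of the antagonist tags differed by line. With vehicle MXD4 gave 25.5% ± 5.59 of them in AML2 and 44.1% ± 0.898 in AML3. MXI1 gave 37.9% ± 12.2 in AML2, with libraries from 25.5% to 50%. In AML3 it gave 30.6% ± 1.64, with libraries from 29.4% to 32.5%, inside the AML2 range. Under JQ1 the shares of MXD4 and MXD3 in AML2 were 35.6% ± 1.95 and 34.7% ± 7.29, while in AML3 MXD4 reached 57.1% ± 6.41 and MXD3 9.36% ± 1.90. OTX015 gave 39.3% ± 2.13 and 27.6% ± 9.11 in AML2 and 57.0% ± 11.9 and 7.66% ± 3.67 in AML3. MXD1 made up 7.60% ± 1.48 and 5.16% ± 2.77 with vehicle and 13.9% to 19.8% on average with a compound.

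**Figure D3:**
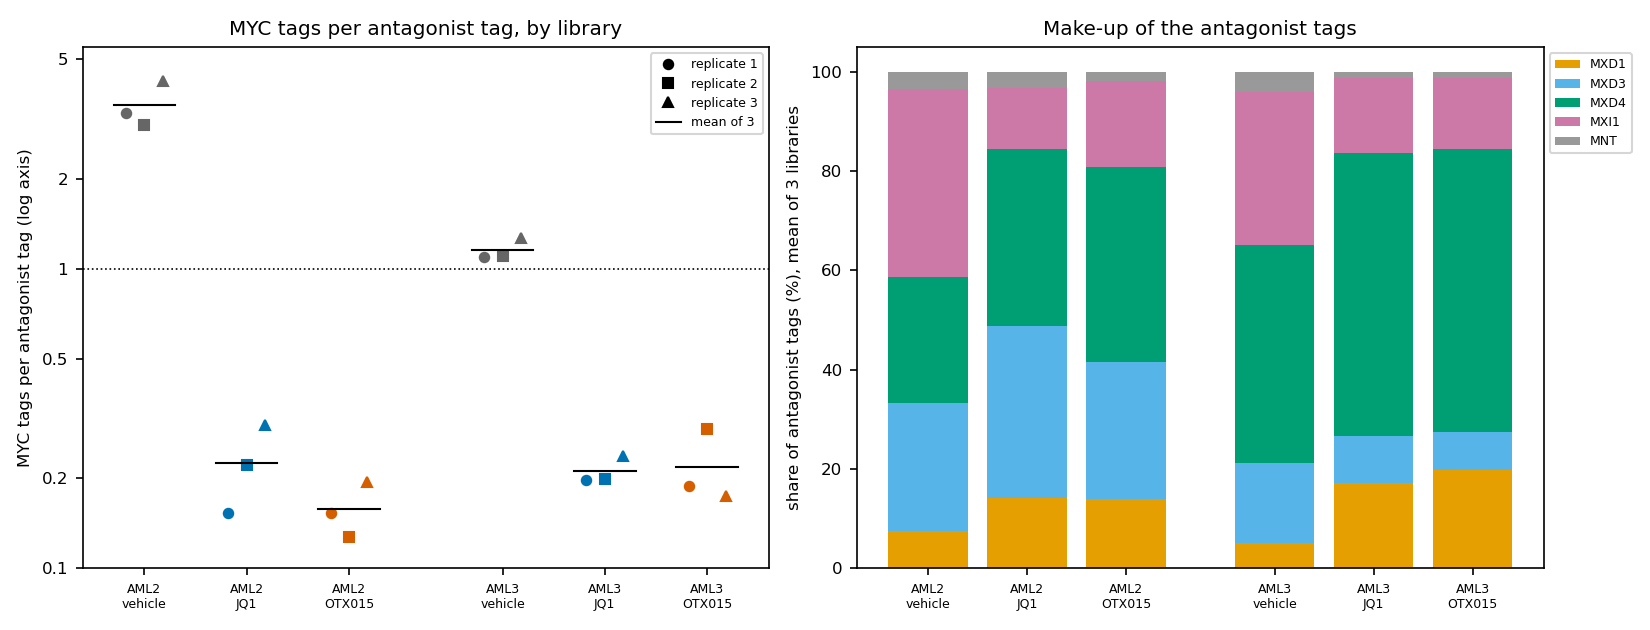
Left: MYC tags per tag of the antagonist genes MXD1, MXD3, MXD4, MXI1 and MNT in each library (log axis, line at the mean of 3, dotted line at equal tags). Right: the share of each antagonist in those tags (stacked bars, mean of 3 libraries); all vehicle libraries lie above 1 and all drug libraries at or below 0.302, and MXD4 is the largest share in AML3 in every condition.

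Promoters were looked at next, because several members start at more than 1 place. A set of promoters was given to a gene only where the counts added up to the gene's count in each of the 18 libraries, which left exactly 1 set for each member and 30 promoters in all. Their names carry hg19 coordinates, except for 1 of MLX in hg38. Of the 30, 11 passed the filter on low counts and were tested among 12867 promoters. Over the 4 drug comparisons 18 of 44 values rose and 1 fell. Both MXD1 promoters and the main MXD4 promoter rose in each of the 4, so many of these rises repeat the results of those genes. Promoters of 1 gene, and comparisons with the same vehicle libraries, are not independent, so 18 of 44 is not a count of separate results. Of all promoters tested 17.1% rose and 18.1% fell under JQ1 in AML2 and 26.5% and 23.8% in AML3, and under OTX015 20.5% rose and 20% fell in AML2 and 28.4% and 25.8% in AML3. MAX was read almost wholly from 1 promoter (90.2% of its tags, chr14:65569186-65569243), as were MLX (91.7%), MLXIP (92.1%) and MXD4 (88.2%, chr4:2263809-2263854). The main promoter of MXD4 rose in each comparison (log2 1.79 in AML2 and 1.47 in AML3 for JQ1, 2.09 and 1.59 for OTX015), and its neighbour at chr4:2263861-2263883, with 10.6% of the tags, showed 1.01, 0.46, 0.63 and 0.42 and did not pass.

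MXI1 used 2 main start regions, 18.4 kb apart in hg19, and the balance between them shifted. The gene's total did not pass the test against vehicle, which does not show that it stayed the same. Its largest change was log2 -0.42 under JQ1 in AML2 (95% interval -0.96 to 0.11, edgeR). RefSeq places the 2 MXI1 windows printed above the same 18.4 kb apart, and, as background, MXI1 is known to make proteins with different amino ends from its alternative first exons. The upstream region (main promoter chr10:111967345-111967422) took 86.5%, 84.6% and 81.4% of MXI1 tags in the AML2 vehicle libraries and 87.0%, 87.9% and 80% in those of AML3. Under JQ1 it took 73.3%, 68.8% and 55.6% in AML2 and 75%, 64.9% and 61.3% in AML3. Under OTX015 it took 61.9%, 54.2% and 45.5% and then 55.8%, 63.4% and 66.7%. Every drug library was below every vehicle library, in both lines. How often the start shares of other genes stand apart in this way was not computed, here or for MGA below. Pooled over libraries the share was 84.2% of 184 tags in AML2 with vehicle (95% exact binomial interval 78.2 to 89.2), 66.3% of 89 under JQ1 (55.5 to 76.0) and 54.5% of 123 under OTX015 (45.3 to 63.5). In AML3 it was 86.2% of 188 (80.4 to 90.8), 68.8% of 128 (60.0 to 76.7) and 61.3% of 111 (51.6 to 70.4). The intervals cover counting error only, and the shift was noticed in these values and so is described, not tested.

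Promoter by promoter, the downstream MXI1 start (chr10:111985713-111985774) rose under OTX015 in both lines, and the upstream one fell under JQ1 in AML2. Under OTX015 the downstream promoter went from 7.18 ± 3.07 to 24.1 ± 8.61 CPM in AML2 (log2 1.72, SE 0.40, adjusted p = 0.00108) and, in AML3, from 7.22 ± 1.30 to 17.5 ± 0.566 CPM (log2 1.31, SE 0.42, adjusted p = 0.0100). Under JQ1 it reached 11.3 ± 7.23 and 14.1 ± 4.01 CPM (log2 0.56 and 0.94), which did not pass (adjusted p = 0.361 and 0.0694). The upstream promoter went from 40.2 ± 10.8 to 23.5 ± 4.25 CPM under JQ1 in AML2 (log2 -0.81, SE 0.28, adjusted p = 0.0244), and its other changes, -0.45, -0.50 and -0.62, did not pass. The OTX015 changes did pass without AML2 vehicle replicate 1 (AML2, adjusted p = 0.0490) and without AML3 vehicle replicate 3 or AML3 OTX015 replicate 3 (AML3, 0.0259 and 0.0342). The upstream fall was lost without AML2 vehicle replicate 2 or 3 (adjusted p = 0.144 and 0.0535), without AML2 JQ1 replicate 2 (0.14), without the filter on low counts (0.108) and with library totals alone (0.156). The downstream rise under OTX015 in AML3 was lost without AML3 vehicle replicate 1 (log2 1.14, adjusted p = 0.0584). At the downstream promoter OTX015 stood 1.17 above JQ1 in AML2 (95% interval 0.35 to 1.99, unadjusted p = 0.00686), which did not pass after adjustment, as 0% of all promoters did.

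MXD1 tags came from 2 promoters a few bases apart, and the downstream of them showed the larger changes. This was noticed in these values, and the difference between the promoters was not tested. It held 0%, 11.1% and 25% of MXD1 tags in the AML2 vehicle libraries, 26.5% to 35.5% under JQ1 and 27.9% to 58.3% under OTX015. The AML3 shares were 10.5%, 6.67% and 50% with vehicle, the last being 1 of 2 tags, then 22.7% to 35.7% under JQ1 and 30.8% to 33.3% under OTX015. The downstream promoter (chr2:70142232-70142251) rose by log2 3.41 in AML2 and 3.74 in AML3 under JQ1 and by 4.01 and 4.10 under OTX015. For the upstream one (chr2:70142189-70142223) the same 4 changes were 1.68, 2.12, 1.49 and 2.39. All 8 changes passed the test. The downstream vehicle level behind the larger set was 1.24 ± 1.31 CPM for AML2 and 1.17 ± 0.275 CPM for AML3, 4 tags in each line, so these sizes are loose (SE 0.60 to 0.65).

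MGA also used 2 regions, 38.9 kb apart. The upstream region held 12 of 61 tags in AML2 and 20 of 66 in AML3 with vehicle, 19.7% and 30.3%, and 8.33% to 15.4% in the drug groups. In AML3 all 3 vehicle libraries, 28.1% to 33.3%, were above all 6 drug libraries, 9.52% to 18.2%, while in AML2 they overlapped. The main downstream promoter (chr15:41952591-41952672) went from 10.5 ± 0.403 CPM in AML3 with vehicle to 20.8 ± 6.21 under JQ1 (log2 0.90, SE 0.38, adjusted p = 0.0490) and 22.3 ± 11.5 under OTX015 (log2 0.94, SE 0.39, adjusted p = 0.0415). Without the libraries numbered 3 those calls ended (adjusted p = 0.125 and 0.257), and so they did without AML3 JQ1 replicate 3 (log2 0.70, adjusted p = 0.168) or AML3 OTX015 replicate 3 (log2 0.56, adjusted p = 0.261). They also ended without any 1 of the AML3 vehicle replicates (adjusted p from 0.0803 to 0.111), without AML3 JQ1 replicate 2 (0.0733) and without the filter on low counts (0.115 and 0.109). In AML2 the change of 0.93 under OTX015 (adjusted p = 0.0510) passed without AML2 vehicle replicate 3 (1.27, adjusted p = 0.0147).

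**Figure D4:**
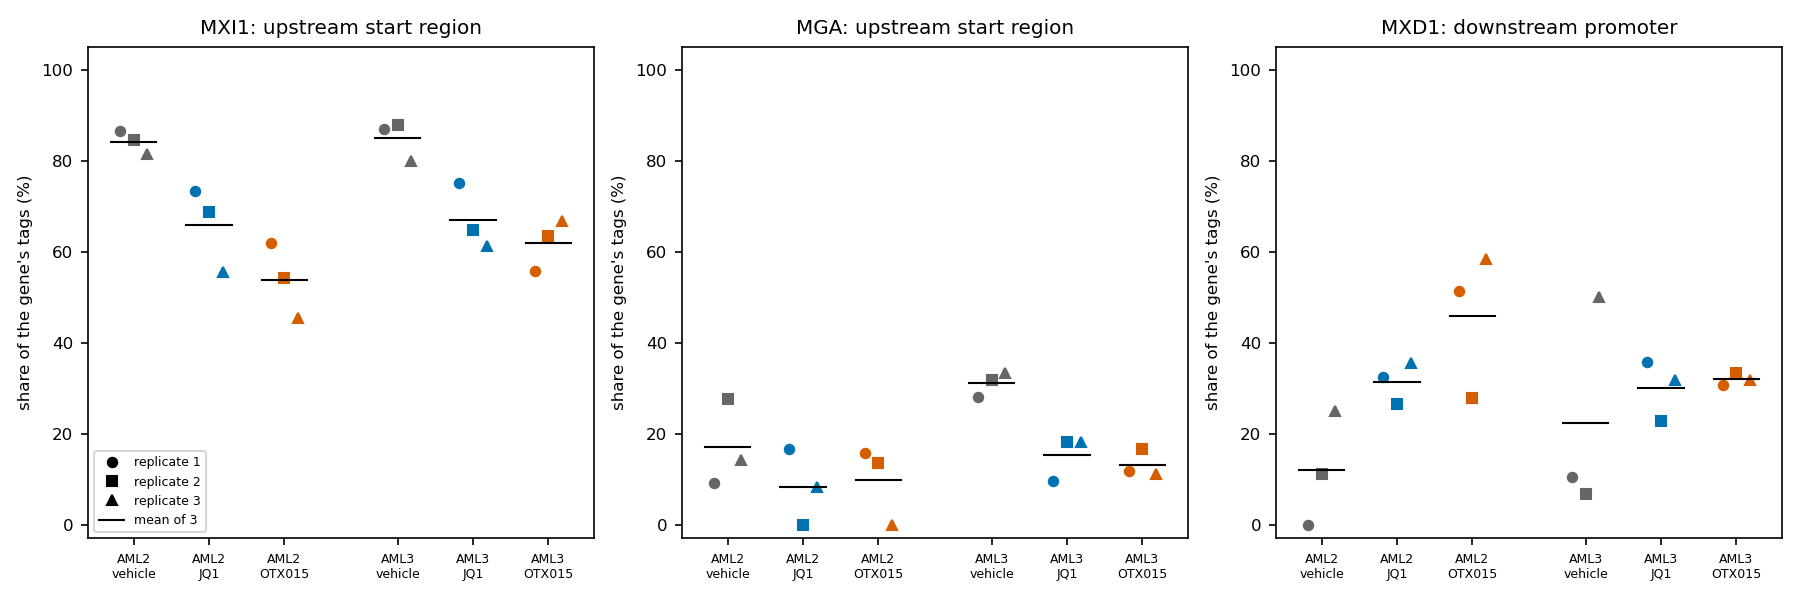
Share of a gene's tags (%) from the upstream start region of MXI1 (left), the upstream region of MGA (middle) and the downstream promoter of MXD1 (right) in each library, with a line at the mean of 3. For MXI1 the 6 vehicle libraries lie at 80% to 87.9% and the 12 drug libraries at 45.5% to 75%; the MXD1 value of 50% in AML3 vehicle replicate 3 rests on 2 tags.

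Genes that work with the members were followed through fixed lists, chosen with earlier results of these data known. Those named are up to 4 per list with the smallest adjusted p against vehicle, and they need not follow the direction of their list. Runs of 4 values give JQ1 in both lines, AML2 first, and then OTX015 in both lines. In that order 17.2%, 26.8%, 20.5% and 28.8% of all genes rose and 17.4%, 24.1%, 19.9% and 26.1% fell, and no list was tested against these shares. Among E-box genes that MYC activates and MXD proteins repress, 10, 8, 9 and 8 of 11 tested fell and 0 rose, with median log2 changes of -1.37, -1.46, -1.72 and -1.36. HSPD1, a mitochondrial chaperonin, fell from 276 ± 65.4 to 66.5 ± 10.4 CPM under JQ1 in AML2 and, in AML3, from 157 ± 30.5 to 43.7 ± 4.29 CPM. CDK4, a G1 kinase, fell by 1.63, 2.10, 1.90 and 2.14, and RCC1, the guanine exchange factor of RAN, by 1.37, 1.46, 2.10 and 1.36. SHMT2, the mitochondrial serine hydroxymethyltransferase, fell further in AML3, from 192 ± 26.7 to 34.3 ± 15.2 CPM under JQ1, than in AML2, from 176 ± 13.5 to 99.3 ± 12.9 CPM (difference -1.59, adjusted p = 0.00957). The AML2 fall under JQ1 missed the threshold without AML2 JQ1 replicate 1 (adjusted p = 0.0772).

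Of 17 genes of the SIN3 corepressor, the partner of MXD and MNT proteins, all were tested, 2, 5, 3 and 6 rose and 3 fell in each comparison, with medians of 0.00, -0.05, 0.22 and 0.19. The shares that rose were near those of all genes. ARID4B, a DNA-binding subunit, rose from 30.2 ± 3.75 to 78.7 ± 6.91 CPM under JQ1 in AML2 and, in AML3, from 33.6 ± 6.42 to 111 ± 30.8 CPM, and by log2 1.78 and 1.76 under OTX015. Its relative ARID4A rose under OTX015 in AML2 and with both compounds in AML3 (log2 1.25, 1.81 and 1.75), the first lost without AML2 vehicle replicate 2 (adjusted p = 0.0586). ING1, which reads histone methylation, rose by 1.001, 1.39 and 1.53 in those comparisons and showed 0.72 under JQ1 in AML2 (adjusted p = 0.0510, and 0.0172 without AML2 JQ1 replicate 2). SIN3B, a scaffold of the complex, rose in AML3, from 29.01 ± 3.77 to 68.1 ± 14.9 CPM under JQ1 (log2 1.21), and showed 0.00 in AML2 (difference 1.21, adjusted p = 0.0465). That difference missed the threshold in 11 of 12 single-library omissions (adjusted p 0.0531 to 0.162) and by DESeq2 (0.0616).

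PRC1.6, the Polycomb complex of MGA and MAX, had 12 of 14 genes tested, of which 1, 2, 1 and 2 rose and 2, 3, 1 and 6 fell. Its medians were -0.35, -0.56, -0.42 and -0.73. TFDP1, the dimer partner of E2F6, fell by 1.14, 1.27, 1.24 and 1.41. The ubiquitin ligase gene RING1 rose in AML2 (1.23 under JQ1, 1.30 under OTX015) and under JQ1 in AML3 (0.63), and the methyltransferase gene EHMT1 rose in AML3 (0.82 and 0.96). In AML3 the JQ1 calls of RING1 and EHMT1 were lost in 4 and 3 of 6 single-library omissions (adjusted p up to 0.127 and 0.0684). WDR5, a histone-binding adaptor, fell in AML3 (-0.90 under JQ1, -0.86 under OTX015), and missed the threshold with library totals alone (adjusted p = 0.150 and 0.283). Of 17 germline genes this complex silences, 5 had a row and 1 was tested. That gene, ZCWPW1, a histone reader of meiosis, was 1.71 ± 0.446 CPM with vehicle and 8.04 ± 4.94 under JQ1 in AML2, and 5.29 ± 0.838 and 13.4 ± 2.30 CPM in AML3 (log2 1.91 and 1.34), on 7 to 36 tags per group. Under OTX015 it was 3.15 ± 0.962 CPM in AML2, on 7 tags, which did not pass (log2 0.67, adjusted p = 0.497), and 13.1 ± 2.94 CPM in AML3 (log2 1.31). Each of the 3 calls was lost in 2 of 6 single-library omissions (adjusted p up to 0.0775 and 0.0764 for JQ1 and 0.0922 for OTX015).

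Of 18 coactivators, ligases and partners of MYC, 6, 6, 6 and 7 fell and 1, 4, 1 and 4 rose, with medians of -0.42, -0.34, -0.39 and -0.25. The ATPase genes RUVBL1 and RUVBL2, which sit in MYC coactivator complexes, fell in each comparison, RUVBL1 from 170 ± 20.9 to 66.8 ± 4.01 CPM under JQ1 in AML2 and, in AML3, from 97.3 ± 9.39 to 42.1 ± 14.8 CPM. The RUVBL2 call under JQ1 in AML3 was lost with library totals alone (adjusted p = 0.117). SKP2, a ubiquitin ligase subunit that acts on MYC, fell by 1.95, 1.02 and 1.94 in the first 3 comparisons and showed -0.67 under OTX015 in AML3 (adjusted p = 0.0535). AURKA, a mitotic kinase that stabilises MYC proteins, fell by 0.77, 0.96, 1.11 and 1.34, the first lost without AML2 vehicle replicate 2 or AML2 JQ1 replicate 2 (adjusted p = 0.0548 and 0.0564). With library totals alone both JQ1 calls of AURKA were lost (adjusted p = 0.112 in AML2 and 0.155 in AML3), and so was that of SKP2 in AML3 (0.207). SKP2 under JQ1 in AML3 was also lost without AML3 vehicle replicate 1 or AML3 JQ1 replicate 2 (0.0549 and 0.0567), and under OTX015 it passed without AML3 vehicle replicate 3 or AML3 OTX015 replicate 3 (0.0264 and 0.0157).

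Of 7 other E-box leucine zipper factors tested, 3, 2, 3 and 1 rose and 2, 3, 2 and 2 fell. TFEB, a factor of lysosome genes, rose in each comparison (1.12, 1.17, 1.48 and 1.10), the first lost without AML2 JQ1 replicate 2 (adjusted p = 0.0889) and the last without AML3 vehicle replicate 1 or AML3 OTX015 replicate 2 (0.0521 and 0.0579). TFE3, its relative, rose from 10.2 ± 3.34 to 29.8 ± 6.71 CPM under JQ1 and to 37.9 ± 4.85 CPM under OTX015 in AML2 and from 23.6 ± 7.91 to 38.1 ± 7.48 CPM under JQ1 in AML3. The AML3 rise of TFE3 was lost in 3 of 6 single-library omissions (adjusted p up to 0.235) and by DESeq2 (0.0696). SREBF1, a factor of lipid synthesis, fell in AML3 (-1.25 and -1.42), and USF1, an E-box factor of many promoters, rose in AML2 (0.89 and 1.001).

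The glucose-responsive targets of MLX and MLXIP that were tested rose, except for HK2. Of 6 listed genes 4 were tested, 3 of which rose in each comparison, while 0, 1, 0 and 1 fell, with medians of 1.98, 1.73, 2.02 and 1.69. TXNIP, which restrains glucose uptake, went from 33.5 ± 13.7 CPM to 200.1 ± 10.98 under JQ1 and 259 ± 47.8 under OTX015 in AML2 (log2 2.64 and 3.01). In AML3 it went from 64.5 ± 22.1 CPM to 241 ± 101 under JQ1 and 179 ± 122 under OTX015 (log2 1.88 and 1.47). There the OTX015 libraries ran from 58.1 to 301 CPM and overlapped vehicle, and the call was lost without AML3 OTX015 replicate 2 (log2 0.88, adjusted p = 0.0693). PFKFB3, a driver of glycolysis, rose by 2.24, 2.04, 2.49 and 2.05 and the repressor gene KLF10 by 1.73, 1.59, 1.54 and 1.91. In AML2 the PFKFB3 libraries spread widely, from 58.2 to 198 CPM under JQ1 and from 60.7 to 253 CPM under OTX015. All were above the 21.1 to 21.7 CPM of vehicle. HK2, the inducible hexokinase, fell in AML3 (-1.28 and -1.69) and showed -0.41 and -0.15 in AML2.

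OTX015 and JQ1 were compared directly in each line, which asks whether the related compounds differ. Both are thienotriazolodiazepines that differ in the group at the end of the side chain, an ester in JQ1 and an aryl amide in OTX015, and since no doses are given the comparison is of the treatments as applied. Of the 7 members 0 passed in either line, and so did 0 of all 10031 genes with edgeR (0%), with 331 (3.3%) in AML2 and 253 (2.52%) in AML3 at an unadjusted p under 0.05 and 1 and 0 with DESeq2. The member with an unadjusted p under 0.05 was MXI1 in AML2, 0.59 higher under OTX015 (95% interval 0.04 to 1.14, unadjusted p = 0.0370). For MXD1 the difference was 0.09 in AML2 (interval -0.50 to 0.69) and 0.29 in AML3 (-0.25 to 0.84). For MXD4 it was 0.21 (-0.25 to 0.68) and 0.09 (-0.35 to 0.53). The intervals of MAX reached from -0.62 to 0.37 and from -0.37 to 0.61, so differences up to about these sizes cannot be told from none here.

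Whether the lines answered differently was tested as an interaction, the effect in AML3 minus that in AML2. Of the 7 members 0 differed for JQ1, where 3.02% of all genes were higher and 3.92% lower, and 0 for OTX015 (2.84% and 4.81%). At an unadjusted p under 0.05, which 20.7% and 22% of all genes reached, there was 1 member for each compound, MLX (JQ1 -0.69, adjusted p = 0.210; OTX015 -0.76, adjusted p = 0.161). For MXD1 the difference was 0.37 (95% interval -0.64 to 1.38) under JQ1 and 0.57 (-0.44 to 1.58) under OTX015, and for MXD4 -0.35 (-1.02 to 0.31) and -0.47 (-1.14 to 0.19). MYC, by contrast, fell less in AML3, by 1.27 for JQ1 (adjusted p = 0.0166) and 1.84 for OTX015 (adjusted p = 0.000737).

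The members' own patterns over the 18 libraries are given as Pearson's r of log2 CPM, a description of libraries that share groups and depth. MXD1 and MXD4 ran together (r = 0.80), and against MYC stood MXD4 (-0.85), MLXIP (-0.81) and MXD1 (-0.81), while MAX had an r of 0.07 with MYC. MXI1 ran with MGA (0.74), both with their top drug-group values in the replicates numbered 3. Among 8707 genes averaging at least 10 CPM, those near MXD1 included SOCS1 (0.98) and DUSP5 (0.97), and the nearest to MXD4 were HBP1 (0.97), KDM7A (0.96) and WBP1L (0.96). MLXIP was nearest to SLC45A4 (0.90), GPR137B (0.89) and USP25 (0.89), and MGA to MCL1 (0.86), RAI1 (0.83) and UBXN4 (0.83). MAX was nearest to DYNLRB1 (0.83), SELENOT (0.82) and ERP44 (0.82), MLX to FUT7 (0.77), VSIR (0.75) and TPRA1 (0.74), and MXI1, after MGA, to SFPQ (0.72) and VPS11 (0.69).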

How the data were processed

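Total RNA of the AML2 and AML3 lines was read by CAGE in 18 libraries. The authors deposited raw counts of tags per gene and per promoter, mapped with STAR to hg38 per the submitters' processing notes, with later steps not given in the sources used here. The test of gene counts was the quasi-likelihood test of edgeR 4.0.16, run in R 4.3.3 (TMM, low-count filter over the 6 groups, all 18 libraries, two-sided, Benjamini-Hochberg over 10031 genes, threshold 0.05), and promoter counts likewise over 12867 promoters. The fit was tested on simulated data. DESeq2 1.42.0, other scalings, no filter, a replicate block and leaving out each library were alternatives. Enhancer counts were not used. Binomial intervals and floors cover counting error only, since tags may be PCR copies.

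The members and lists were chosen with earlier results of these data known. Named were the members, MYC, MYCL, MXD3, MLXIPL, TXNIP, up to 4 genes per list with the smallest adjusted p in any comparison with vehicle, and the 3 genes most correlated with each member, of which 1 is not reported here. MYCN, ARRDC4, MPO and CD34 had no row in the gene counts and so could not be analysed. Equal replicate numbers deviated together, each pair's correlation being over 0.1, for OTX015 against JQ1 only (0.121, 0.158 and 0.347 in AML2; 0.374, 0.351 and 0.623 in AML3). That pairing comes from the data, as the labels name no shared batch. In neither line did each OTX015 library correlate best with the JQ1 library of its own number. Each library did so only for OTX015 against vehicle in AML3, at correlations of 0.051 to 0.096.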

Additional observations from a re-analysis of the deposited data

Results flagged for a closer look

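The response to a compound differed between the lines, by an interaction test in edgeR with adjusted p, for 5 of the genes named beside the members. Of the 7 members tested 0 differed. Among all genes 3.02% were higher and 3.92% lower for JQ1, and 2.84% and 4.81% for OTX015, so 0 of 7 is near those shares. Genes of the lists were named for the smallest adjusted p against vehicle, so the counts of named genes and members cannot be compared. Each value is the log2 change in AML3 minus that in AML2. MYC fell less in AML3, by 1.27 for JQ1 (adjusted p = 0.0166) and 1.84 for OTX015 (adjusted p = 0.000737). The JQ1 difference was lost without AML2 JQ1 replicate 1 (adjusted p = 0.0732) or 2 (0.0591) or AML3 vehicle replicate 1 (0.0520). SIN3B, the corepressor scaffold, differed by 1.21 for JQ1 (adjusted p = 0.0465), lost in 11 of 12 single-library omissions (0.0531 to 0.162). SHMT2, of mitochondrial serine metabolism, differed by -1.59 for JQ1 (adjusted p = 0.00957) and -1.33 for OTX015 (adjusted p = 0.0336), the latter lost in 7 of 12 omissions (0.0606 to 0.104). TFE3, the lysosomal factor, differed by -1.68 for OTX015 (adjusted p = 0.0118), lost without AML2 vehicle replicate 2 (0.0537). HK2, the hexokinase, differed by -1.54 (adjusted p = 0.0425), lost in 10 of 12 omissions (0.0564 to 0.106).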

How the results depend on the processing

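No value reversed. Of 4773 recomputed values of single genes and of promoters of MXI1, MXD1 and MGA, 4574 kept their side of the threshold. Another 80 passed it newly and 119 lost it, and 186 gene values that did not pass changed sign. Promoters of the other members were not followed singly. With library totals alone, 2 members instead of 1 differed between the lines (MLX 0.69, adjusted p = 0.0377) and in AML3 3 instead of 2 rose with JQ1 (MLXIP added) and 4 instead of 2 with OTX015 (MAX and MLXIP added). That scale moved the median of all genes by 0.14 between the lines, 0.16 and 0.40 for JQ1 in AML2 and AML3, and 0.19 and 0.47 for OTX015. It took the share of calls that rose from 49.4% to 61%, 49.8% to 59.8%, 52.7% to 72.6%, 50.7% to 61.1% and 52.4% to 72.7% for the line, JQ1 and then OTX015 comparisons.

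Leaving out 1 library gave 1 to 2 members between the lines, 3 in AML2 and 2 in AML3 for JQ1, and 3 in AML2 and 2 to 3 in AML3 for OTX015. Member promoters called were 17 to 20, against 19. With a replicate block the members called were unchanged in number in all 9 comparisons (1 between the lines, 3 and 2 for JQ1, 3 and 2 for OTX015, 0 in the others), and 22 promoter values were called. Outside OTX015 against JQ1, equal numbers did not all correlate above 0.1, so the block there pairs by number alone. Under it MXD3 differed between the lines (adjusted p = 0.0229 for JQ1, 0.0203 for OTX015). Depth limits MNT, which the filter on low counts removed and which passed in no comparison without it, and the starts of MGA and MXD1.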
